A study of Mus musculus with 6 samples.

Results

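The Notch pathway was described here by 10 genes in embryonic mouse skin: the receptors Notch1, Notch2 and Notch3, the ligands Jag1, Jag2 and Dll1, the nuclear partner Rbpj, and the target genes Hes1, Hey1 and Heyl. The members were all probe sets that the platform annotation assigns to exactly 1 of these gene symbols, which gave 10 of the 18194 genes named on the array and 20 of its 45101 probe sets. Each sample was hybridised to 1 Affymetrix mouse array, with 3 samples of Tcfap2c mutant skin and 3 samples of control skin, both at embryonic day 16.5. Tcfap2c, listed as Tfap2c in the current annotation, codes for the AP-2 gamma protein, which regulates transcription in surface ectoderm. The labels used here state neither the allele, the strain nor whether embryos shared a litter, so the p-values measure only the spread between these samples. The description field of the control samples also mentions the mutation, while their titles and source names do not, and the groups follow the titles.

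Notch receptors are membrane proteins that are cut when a ligand on a neighbouring cell binds them. The freed intracellular part enters the nucleus, joins the DNA-binding protein Rbpj and the Mastermind coactivators, and switches on repressors of the Hes and Hey families. In mouse epidermis the pathway is known for promoting the step from basal to spinous cells, where Hes1 is a main target, and AP-2 proteins have also been tied to that step. In the wall of blood vessels Notch3 and Heyl are typical of pericytes and smooth muscle.

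By their brightest probe sets, none of the 10 genes passed the test for a difference between mutant and control skin. In limma's test over 22518 probe sets every adjusted p of the members was 0.9999, and 0.00444% of all probe sets tested passed an adjusted p of 0.05. So few passed that the lack of a member among them says little about these genes. At an unadjusted p under 0.05, 0 of the 10 genes passed by their brightest probe set and 1 of the 19 tested member probe sets did, against 3.42% of all probe sets. Mutant and control samples overlapped for all 19 tested member probe sets, while they did not overlap for 8.33% of all probe sets. By the brightest probe set 3 genes had a positive and 7 a negative difference, and their median was -0.06 (log2), against a median of -0.02 over all probe sets tested and a positive difference in 44.4% of them. Differences here are mutant minus control means of log2 signal, after a pseudocount of 24.48 that understates changes of dim probe sets. Without mutant sample 1, described next, 0 of the 10 genes passed either threshold by their brightest probe set, where 0.173% of all probe sets passed the adjusted and 7.14% the unadjusted one, and the median of the 10 was 0.10. With all 6 samples the differences ranged from -0.36 to 0.61 over the 19 tested probe sets, with standard errors of 0.13 to 0.29. In whole skin, fewer cells of a type and less RNA per cell cannot be told apart.

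**Figure D1:**
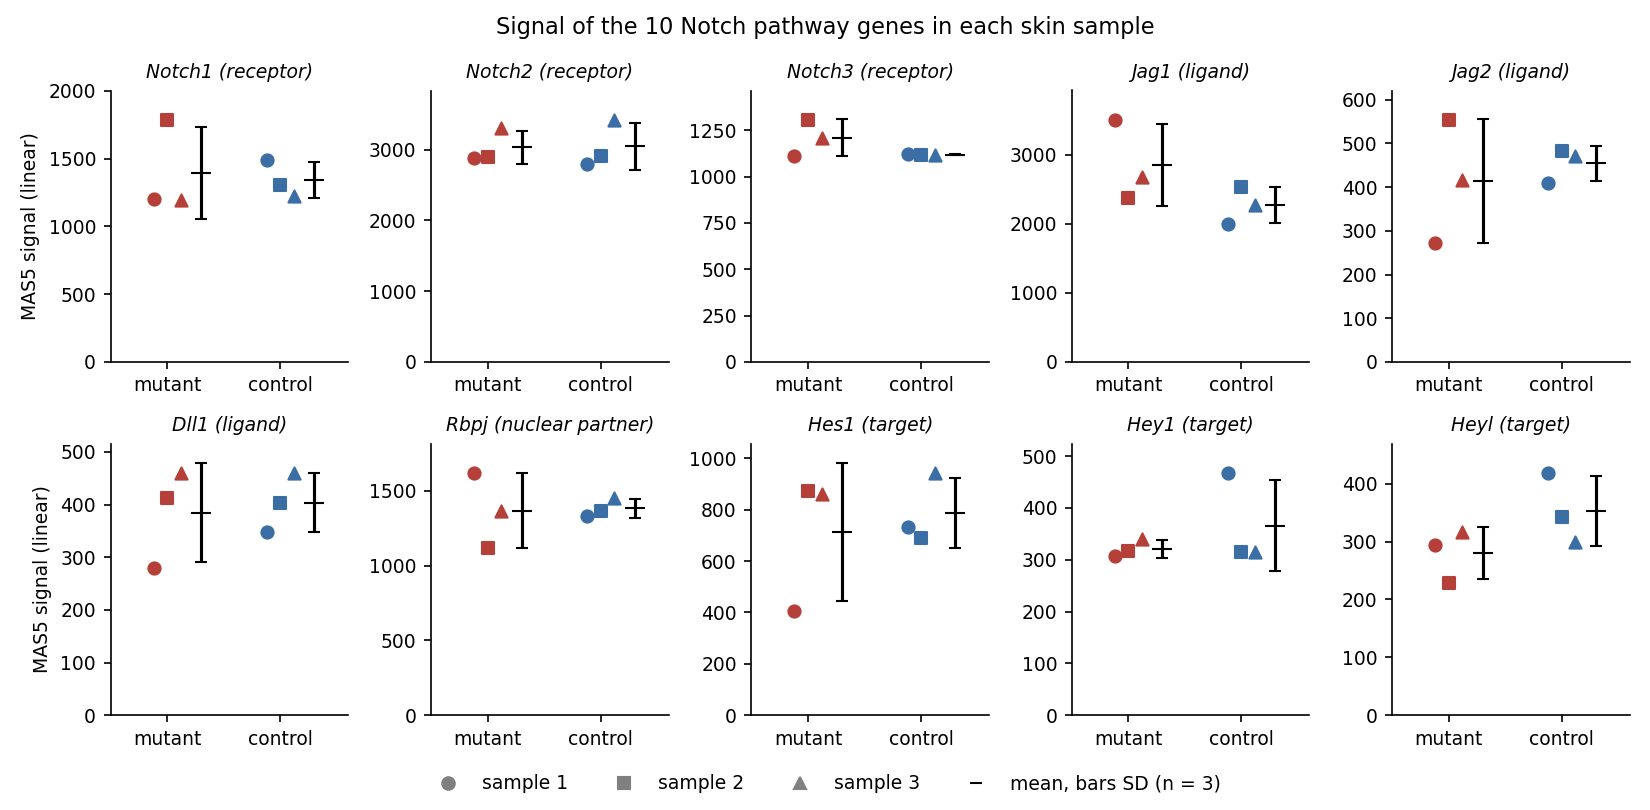
Signal (MAS5, linear axis from 0) of the brightest probe set of each Notch pathway gene in the 3 mutant (red) and 3 control (blue) samples, with the mean and SD of each group in black. The groups overlap for each of the 10 genes, and mutant sample 1 (circle) is lowest for Notch3, Jag2, Dll1, Hes1 and Hey1 and highest for Jag1 and Rbpj.

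Keratinocyte markers were bright in every sample, with Krt10 at 44371 to 55935 in mutant and 38888 to 53861 in control samples. The series title speaks of epidermis, while Acta1, an actin of skeletal muscle, had 17022 to 23573 in mutant and 20399 to 26176 in control samples. Mutant sample 1 stood apart from the other arrays. On the leading principal component (44.6% of the variance) it scored -65.1 and the other 5 samples between 0.35 and 28.3. In a list of 11 pericyte and smooth muscle markers the summed signal was 67596 in mutant sample 1 and 12509 and 12779 in the other mutant samples, against 12574 to 14395 in control samples. In a list of 4 decidual and uterine markers it was 46803 in mutant sample 1 and 348 and 513 in the other mutant samples, against 145 to 422 in control samples. Prl8a2, a decidual hormone, had a signal of 14204 in mutant sample 1 and of at most 61.2 in any other sample, and Prap1, a secreted protein of uterus and gut, 32479 and at most 335. The other markers of that list, Prl3c1 and Ltf, were at 2.18 and 118 in mutant sample 1. Of the 11 pericyte and smooth muscle markers, 10 were highest in that sample. The list sum of 4 leukocyte markers was 11425 in that sample, against 6174 to 6221 in control samples. The 5 basal keratinocyte markers summed to 27901, 48397 and 37114 in mutant samples 1, 2 and 3, against 40440 to 45528 in control samples. The part of these other tissues in the Notch values was not tested, and differences without mutant sample 1 are given for the brightest probe set of each gene. The array that was highest or lowest of the 6 was mutant sample 1 for 7 of the 10 genes and for 55.6% of all probe sets tested.

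**Figure D2:**
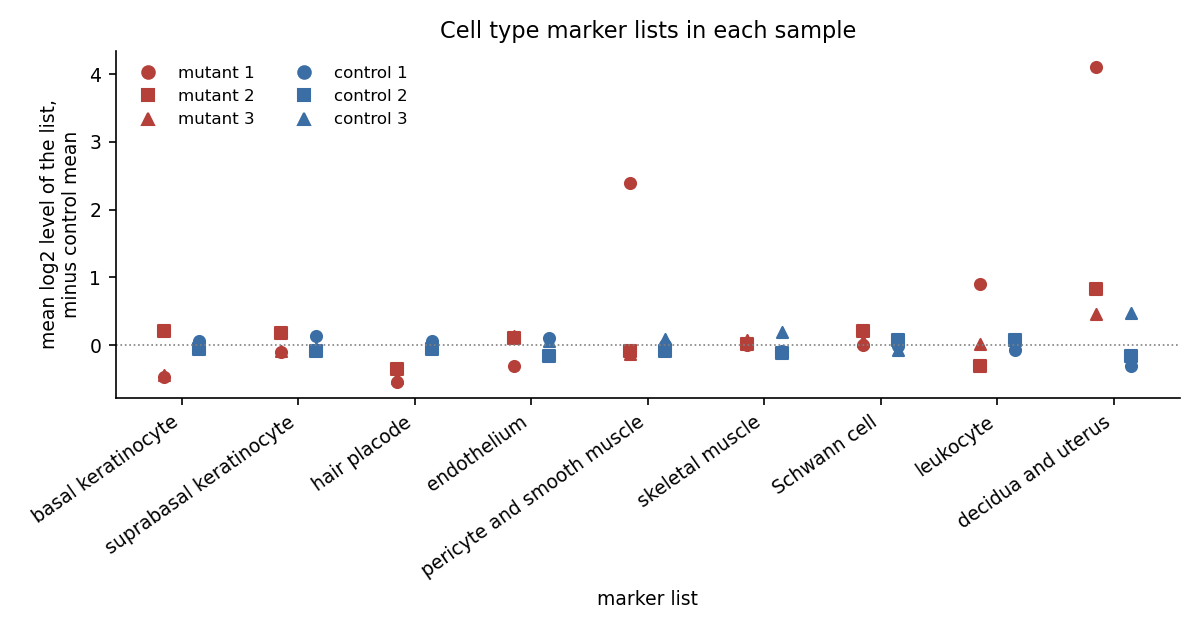
Mean log2 level of each cell type marker list in every sample, minus the mean of the control samples, with mutant samples in red and control samples in blue. Mutant sample 1 lies far above the other samples for pericyte and smooth muscle markers, for decidual and uterine markers and for leukocyte markers, and the 3 mutant samples lie below the 3 control samples for the hair placode list.

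The targeted gene was measured by 3 probe sets. The brightest gave a Tfap2c signal of 1596, 1392 and 1247 in mutant samples 1, 2 and 3, against 1330, 1347 and 1193 in control samples 1, 2 and 3. The groups overlapped. Since the altered part of the gene is not stated in the labels used here, the signal does not check them.

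The 3 receptors had differences between -0.0042 and 0.11 on their brightest probe sets. Notch1, the receptor most studied in suprabasal keratinocytes, had a signal of 1200, 1787 and 1198 in mutant samples 1, 2 and 3, against 1488, 1308 and 1227 in control samples 1, 2 and 3. Mutant sample 2 was the highest of the 6 and the other mutant samples were the lowest, by a small margin below control sample 3. The log2 difference was 0.03 (95% interval -0.38 to 0.45). The dimmer Notch1 probe set gave 434 ± 62 in mutant skin, against 367 ± 105 in control skin (SD, n = 3 each), a difference of 0.25 (interval -0.25 to 0.75). Without mutant sample 1 the differences of the pair were 0.13 and 0.36.

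Notch2, a receptor found in many cell types of skin, had the smallest standard error among the tested member probe sets, 0.13. It was 2886, 2897 and 3305 in mutant samples, against 2799, 2910 and 3423 in control samples 1, 2 and 3. The groups lay over each other from end to end, with means of 3029 ± 239 in mutant skin, against 3044 ± 333 in control skin (SD, n = 3 each). The difference was -0.0042 with an interval of -0.30 to 0.30, which leaves room for a fold between 0.81 and 1.23 of mutant over control. Without mutant sample 1 the difference was 0.03. A second Notch2 probe set lay under the filter on dim signal and was not tested. Its signal was 25.0, 184 and 84.6 in mutant samples, against 114, 90.4 and 83.3 in control samples, so the lowest and the highest values were both from mutant skin.

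Notch3, a receptor of pericytes and smooth muscle that is also made in keratinocytes, had a signal of 1108, 1307 and 1211 in mutant samples 1, 2 and 3. In control samples 1, 2 and 3 it was 1119, 1114 and 1119, a spread of 3.03 (SD). Mutant samples 2 and 3 lay above the control samples and mutant sample 1 just below them. The difference was 0.11 (interval -0.19 to 0.41) with all samples and 0.17 without mutant sample 1. The second Notch3 probe set gave 0.10, and its signal was 181 ± 22 in mutant skin, against 167 ± 27 in control skin (SD, n = 3 each). In mutant sample 1, where the smooth muscle list stood highest, the brighter Notch3 probe set was the lowest of the 6 and the dimmer one the highest (199, against at most 198 in the other samples).

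**Figure D3:**
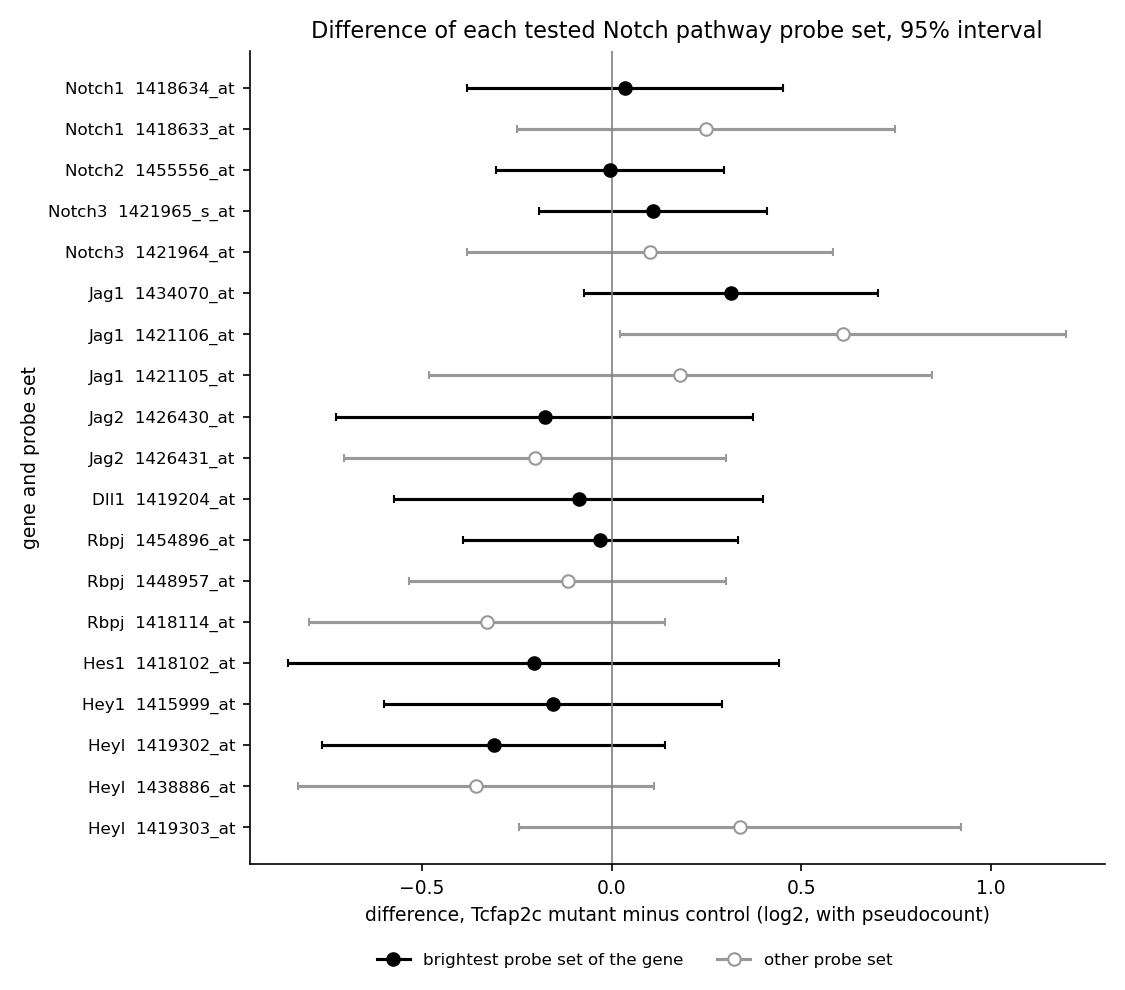
Difference of each of the 19 tested probe sets of the Notch pathway genes (points, log2 of mutant minus control with a pseudocount of 24.48) with its 95% interval from limma (bars). All intervals hold 0 except that of the second Jag1 probe set, which runs from 0.02 to 1.20.

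The ligands held the largest positive difference among the 10 genes. Jag1, a ligand of the Serrate class, had a signal of 3513, 2379 and 2674 in mutant samples 1, 2 and 3 on its brightest probe set, against 2004, 2529 and 2278 in control samples 1, 2 and 3. Mutant samples 1 and 3 exceeded every control sample, and mutant sample 2 lay between control samples. The log2 difference was 0.31 (SE 0.17, interval -0.07 to 0.70, unadjusted p = 0.0986 in limma), a fold of 1.24. On this probe set it was 0.16 without mutant sample 1, the sample that also stood highest for smooth muscle markers. The other Jag1 probe sets had larger differences without that sample.

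Another Jag1 probe set was the one member probe set with an unadjusted p under 0.05. It gave 372, 311 and 548 in mutant samples 1, 2 and 3, against 320, 186 and 270 in control samples 1, 2 and 3. Control sample 1 lay above mutant sample 2, so the groups overlapped. The difference was 0.61 (SE 0.26, interval 0.02 to 1.20, unadjusted p = 0.0433, adjusted p = 0.9999 in limma), a fold of 1.53. Without mutant sample 1 it was 0.66, with an unadjusted p of 0.041 and an adjusted p of 0.674 in limma. The dimmest Jag1 probe set gave 0.18, with 114, 250 and 237 in mutant samples against 196, 152 and 150 in control samples. There mutant sample 1 was the lowest of the 6, whereas on the brightest probe set it was the highest. Without that sample the dimmest probe set gave 0.50 (unadjusted p = 0.0513, adjusted p = 0.699 in limma). All 3 tested Jag1 probe sets had a positive difference.

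Jag2, the other Serrate-class ligand, had a signal of 272, 555 and 416 in mutant samples 1, 2 and 3, against 410, 483 and 471 in control samples 1, 2 and 3. The mutant samples held both the lowest and the highest value. The difference was -0.18 (interval -0.73 to 0.37), and -0.20 on the second probe set. Without mutant sample 1 these were 0.08 and -0.04.

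Dll1, a ligand of the Delta class known from somites and muscle progenitors, had a signal of 279, 413 and 460 in mutant samples 1, 2 and 3, against 349, 402 and 460 in control samples 1, 2 and 3. Apart from the low mutant sample 1, the values of both groups lay within the same range. The difference was -0.09 (interval -0.57 to 0.40) with all samples and 0.11 without mutant sample 1. Skeletal muscle markers, which belong to another source of Dll1, summed to 39474 to 47902 in mutant samples, against 44047 to 56293 in control samples.

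Promoter windows of 300 bases, from 250 before to 50 after a gene's start, were taken from RefSeq on GRCm38.p6 and covered 7 of the 10 genes in 9 windows: Notch1, Notch2, Notch3, Jag1, Jag2, Dll1 and Rbpj. They were searched on both strands for GCCNNNGGC, letters bound by AP-2 proteins, and for TGGGAA, the core letters bound by Rbpj. The AP-2 letters were in 1 of the 9 windows, that of Jag2, and in 16.6% of all 32851 windows. The Rbpj letters were in 2 windows that overlap each other, both of Rbpj itself, and in 25.6% of all windows. The motifs did not overlap each other. The windows of Jag1 (the gene with the largest positive difference), Jag2 and Rbpj are shown, 5′ to 3′ on the gene's strand, with motif letters in capitals. Their coordinates are chr2:137116471-137116770 (minus strand), chr12:112929446-112929745 (minus strand) and chr5:53590096-53590395 (plus strand).
Jag1: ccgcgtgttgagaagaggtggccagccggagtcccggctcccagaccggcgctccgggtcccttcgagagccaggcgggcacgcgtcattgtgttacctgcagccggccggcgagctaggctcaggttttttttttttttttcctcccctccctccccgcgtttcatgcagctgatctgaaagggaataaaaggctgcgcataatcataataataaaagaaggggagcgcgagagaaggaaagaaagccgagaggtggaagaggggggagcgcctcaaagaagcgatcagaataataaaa
Jag2: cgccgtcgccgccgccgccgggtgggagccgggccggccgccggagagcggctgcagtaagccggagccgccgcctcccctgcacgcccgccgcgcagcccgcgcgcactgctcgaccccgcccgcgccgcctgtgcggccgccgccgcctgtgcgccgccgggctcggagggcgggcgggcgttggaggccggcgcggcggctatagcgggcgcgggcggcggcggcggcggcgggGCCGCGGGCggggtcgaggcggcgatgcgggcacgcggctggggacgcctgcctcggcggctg
Rbpj: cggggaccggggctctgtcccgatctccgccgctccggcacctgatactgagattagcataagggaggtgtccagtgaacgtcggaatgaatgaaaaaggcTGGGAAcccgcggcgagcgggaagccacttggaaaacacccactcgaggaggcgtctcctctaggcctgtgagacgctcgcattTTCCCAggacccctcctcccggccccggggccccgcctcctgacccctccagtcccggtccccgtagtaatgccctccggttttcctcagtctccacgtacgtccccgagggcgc
A match is a run of letters and does not show binding, and the Jag1 window held neither motif.

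Rbpj, the DNA-binding partner through which all the receptors act, was measured by 3 probe sets. On the brightest the signal was 1621, 1121 and 1365 in mutant samples 1, 2 and 3, against 1330, 1368 and 1451 in control samples 1, 2 and 3. The mutant samples again held both ends of the range. The difference was -0.03 (interval -0.39 to 0.33) with all samples and -0.16 without mutant sample 1. The other probe sets gave -0.12 and -0.33. On the dimmest the signal was 376 ± 64 in mutant skin, against 482 ± 111 in control skin (SD, n = 3 each), with an interval of -0.80 to 0.14. The mouse annotation lists pseudogenes of Rbpj, so its probe sets may share signal with such copies.

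Among the targets, Hes1, a repressor that Notch switches on in the first suprabasal cells, had a signal of 404, 875 and 863 in mutant samples 1, 2 and 3, against 734, 689 and 944 in control samples 1, 2 and 3. Mutant sample 1 was far below the other 5 samples, and the other mutant samples lay within the control range. The difference was -0.20 (interval -0.85 to 0.44), the widest interval among the brightest probe sets of the 10 genes. Without mutant sample 1 it was 0.15. The summed basal keratinocyte markers were also lowest in mutant sample 1, where 3 of the 5 were lowest and 1 was highest. The 6 suprabasal markers summed to 155543 in that sample, against 146425 to 182141 in control samples. The part of either list in the Hes1 value was not tested.

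Hey1, a repressor of vessels, mesenchyme and other Notch-active cells, had a signal of 307, 316 and 339 in mutant samples 1, 2 and 3, against 468, 316 and 314 in control samples 1, 2 and 3. Apart from control sample 1 the 5 values were close together. The difference was -0.16 (interval -0.60 to 0.29), -0.13 without mutant sample 1 and 0.02 without control sample 1.

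Heyl, the related repressor typical of pericytes and smooth muscle, had the largest negative difference among the 10 genes. The brightest of its 3 probe sets gave 294, 229 and 316 in mutant samples 1, 2 and 3, against 419, 343 and 299 in control samples 1, 2 and 3. The groups overlapped between mutant sample 3 and control sample 3. The difference was -0.31 (interval -0.76 to 0.14, unadjusted p = 0.154 in limma) and -0.35 without mutant sample 1. The second probe set gave 192, 246 and 196 in mutant samples, against 317, 299 and 222 in control samples, a difference of -0.36. The dimmest had the other sign, with 123, 187 and 173 in mutant against 126, 92.4 and 149 in control samples, a difference of 0.34. Among the genes with more than 1 tested probe set, Heyl was thus the only one whose probe sets differed in sign with all 6 samples. Without mutant sample 1, those of Jag2 and Rbpj differed in sign as well. Notch2, Dll1, Hes1 and Hey1 had 1 tested probe set each.

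**Figure D4:**
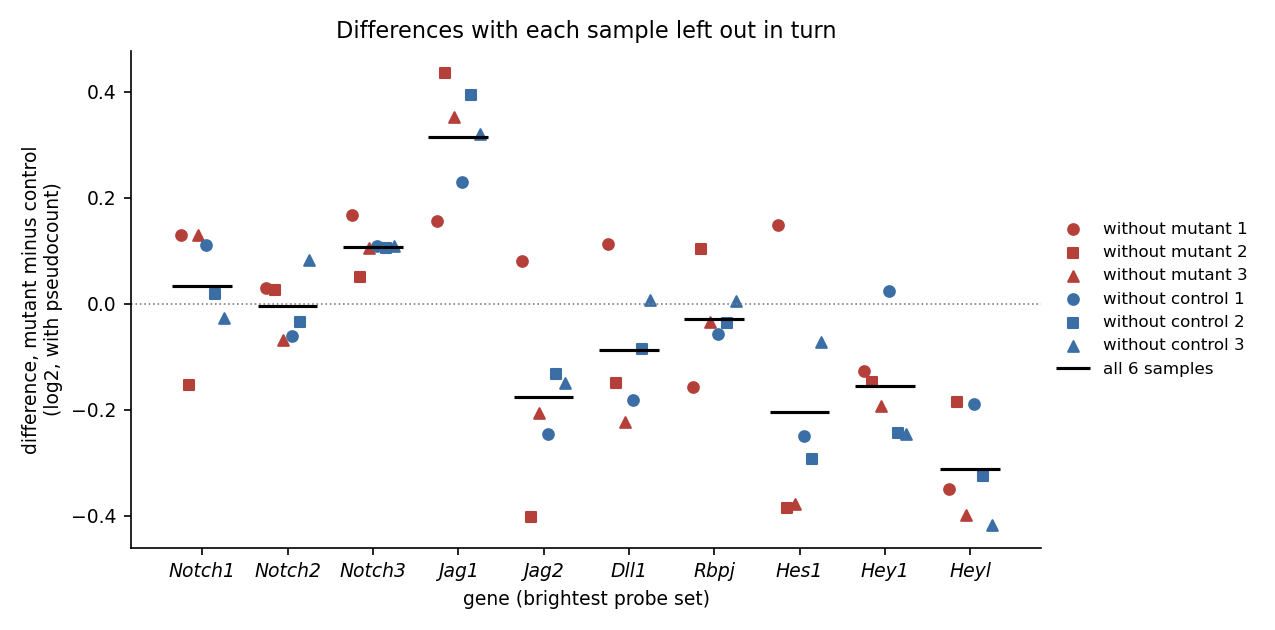
Difference (log2, mutant minus control) of the brightest probe set of each Notch pathway gene with each sample left out in turn, red marks for a mutant and blue marks for a control sample left out, and black bars for all 6 samples. Notch3 and Jag1 stay above 0 and Heyl below 0 in all 6 cases, while Notch1, Notch2, Jag2, Dll1, Rbpj, Hes1 and Hey1 cross 0.

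The wider pathway was looked at through a list of 46 further genes, of which 42 had a probe set and 32 passed the filter on dim signal. By their brightest probe sets, 0 of the 32 were higher and 0 lower at an adjusted p of 0.05 in limma, against 0.00444% of all probe sets tested. At an unadjusted p under 0.05, 0 passed, against 3.42% of all probe sets tested. Differences of these genes are those of the brightest probe set unless another is named. Positive differences numbered 10 and negative ones 22, with a median of -0.05, and 28 of the 32 lay within 0.2 of 0 either way. Mutant and control samples overlapped on the brightest probe set of each of these 32 genes, while they did not overlap for 8.33% of all probe sets tested. On the dimmest Mib1 probe set they did not overlap, with 122, 122 and 155 in mutant samples, against 108, 116 and 115 in control samples.

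None of the genes for proteases and cofactors that cut the receptors passed the test. Adam10, the protease that makes the first cut, had a signal of 4472 ± 558 in mutant skin, against 4491 ± 298 in control skin (SD, n = 3 each). The difference was -0.01 (interval -0.31 to 0.29) on this brightest probe set. Its other tested probe sets gave -0.27 (interval -0.84 to 0.30) and -0.28 (interval -0.96 to 0.41). Psenen, a subunit of gamma-secretase, which makes the second cut, differed by -0.07 (interval -0.39 to 0.25). The 15 tested genes of ligand and receptor processing ranged from -0.28 (Neurl1a) to 0.09 (Aph1b).

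In the nuclear complex, Ctbp1, a corepressor, differed by -0.02 (interval -0.28 to 0.24) and Snw1, a coregulator that binds Rbpj, by 0.01 (interval -0.28 to 0.30). Among genes that restrain Notch or turn it over, Nrarp, itself a Notch target that limits the signal, had 2960, 4731 and 4621 in mutant samples 1, 2 and 3, against 4241, 4356 and 4164 in control samples 1, 2 and 3. Mutant sample 1 was the lowest of the 6, as for Hes1, and the other mutant samples of Nrarp lay above the control samples. The difference was -0.08 (interval -0.49 to 0.33), and -0.32 (interval -0.95 to 0.32) on the second Nrarp probe set. Dtx2, a Deltex ubiquitin ligase, differed by 0.08. Numbl, a relative of the Notch antagonist Numb, had the largest difference of the 32, -0.44 (interval -1.04 to 0.16), and was chosen after its value was seen.

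The remaining receptors, ligands and targets were mostly dim. Dll4, the Delta ligand of endothelium, differed by 0.06 (interval -0.42 to 0.53), and endothelial markers summed to 4603 to 6151 in mutant against 5214 to 6084 in control samples. Hes6 differed by -0.03 (interval -0.53 to 0.47). Notch4, the endothelial receptor, was under the filter, with a signal of 131 ± 12 in mutant skin, against 94.7 ± 26.2 in control skin (SD, n = 3 each). Hes5, another Hes repressor and also under the filter, had 101 ± 32 in mutant skin, against 134 ± 101 in control skin.

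**Figure D5:**
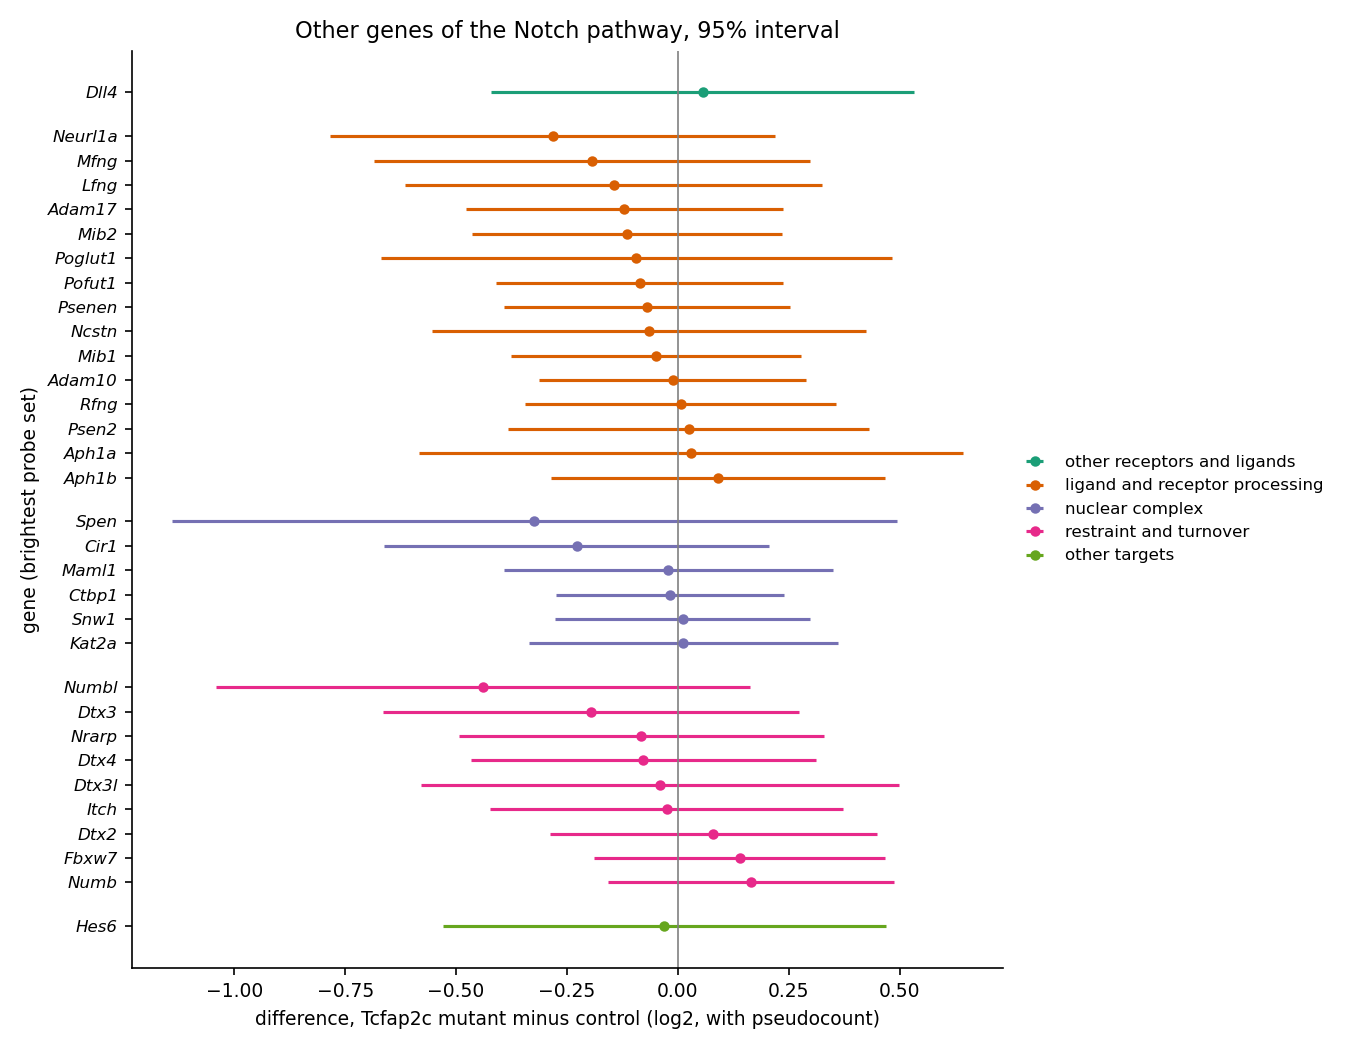
Difference (points, log2 of mutant minus control with a pseudocount of 24.48) and 95% interval (bars) of the 32 tested further genes of the pathway, coloured by role. All 32 intervals hold 0, and the points run from -0.44 for Numbl to 0.16 for Numb.

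Genes known to act with or below Notch in keratinocytes were measured for 7 of 8 listed names. With all 6 samples none passed an adjusted p of 0.05 in limma, against 0.00444% of all probe sets tested. None had an unadjusted p under 0.05 by its brightest probe set, against 3.42% of all probe sets tested, so these counts say little about so few genes. Cdkn1a, a cell cycle inhibitor switched on by Notch1 in mouse keratinocytes, differed by 0.06. The suprabasal keratins Krt1 and Krt10 differed by 0.09 and 0.14, and Trp63, the basal factor that opposes Notch, by -0.05. The dimmer Trp63 probe sets gave -0.01, -0.44 and -0.31 with all samples, and -0.03, 0.05 and -0.04 without mutant sample 1. Cebpa and Cebpb, regulators of the spinous stage, differed by -0.12 and 0.09. The dimmer Cebpb probe set had the other sign, -0.15 with all samples, and gave 0.41 without mutant sample 1. Ivl, which encodes the envelope protein involucrin, differed by -0.27, with 9278, 8328 and 5653 in mutant samples 1, 2 and 3, against 9277, 10293 and 8070 in control samples 1, 2 and 3. Mutant sample 3 was the lowest of the 6 and mutant samples 1 and 2 lay within the control range. A second Ivl probe set gave 1644, 2188 and 1391 in mutant samples, against 2353, 2338 and 2217 in control samples. All its mutant values lay below the control values, with a difference of -0.42 (unadjusted p = 0.0368, adjusted p = 0.9999 in limma). The groups did not overlap for 8.33% of all probe sets tested. Without mutant sample 1, the brightest probe set of Ivl differed by -0.42 (unadjusted p = 0.0322, adjusted p = 0.647 in limma) and that of Cebpb by 0.35 (unadjusted p = 0.0368, adjusted p = 0.656 in limma), where 7.14% of all probe sets had an unadjusted p under 0.05.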

How the data were processed

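Skin total RNA (Qiagen kit) was biotin-labelled, per the labels' protocols. The authors' deposited values are MAS5 signals, a linear intensity per probe set, and the version of MAS5 is not given in the sources used here (MAS5 itself per the submitters' processing notes). Each array had been scaled to a mean of 500 after trimming 2% at each end, and the median signal per array was 110 to 131. The number of arrays limits the precision.

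Signals were taken to log2(signal + 24.48), the 20th percentile of all values. The 64 control probe sets were left out, and probe sets with a mean log2 above the median (a signal of about 114) were tested, 22518 in all. Genes were named from probe sets with 1 symbol (34958; 932 had several and 9211 none) and represented by the brightest. The test was limma's (version 3.58.1, R 4.3.3; lmFit, eBayes with trend, two-sided, Benjamini-Hochberg over all probe sets tested), tried first on simulated data. For 3 against 3 samples the smallest two-sided p of an exact permutation test is 0.1. Figures used matplotlib 3.10.9.

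The members and lists were chosen with earlier results of these data known. Named genes were all members, Tfap2c, the keratinocyte list, up to 8 further pathway genes with the smallest unadjusted p under 0.05 (0 met this) and up to 2 of the highest signal in each role. Prl8a2, Prap1, Rgs5, Shh, Lhx2, Dll3, Hes3, Numbl, Numb, Neurl1a, Mib1 and Aph1b were named after their values were seen. Marker lists covered basal and suprabasal keratinocytes, hair placode, endothelium, pericyte and smooth muscle, skeletal muscle, Schwann cells, leukocytes, and decidua and uterus. Settings tried were pseudocounts of 16 and 100, no filter, quantile normalization, median centring, no trend, array weights, a replicate block, each sample left out, a gene's probe sets averaged, no _s_at, _x_at or _a_at probe sets, and an adjusted p under 0.1.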

Additional observations from a re-analysis of the deposited data

How the results depend on the processing

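Of the 10 Notch genes, 0 passed an adjusted p of 0.05 in limma in any setting run. The number with an unadjusted p under 0.05 was 0 in every setting with all 6 samples and 1 probe set per gene. It was 0 to 1 with 1 sample left out, and 1 with a gene's probe sets averaged. Both times the gene was Jag1 (0.43 without mutant sample 2, 0.37 with probe sets averaged). Of all probe sets, 3.42% had such a p in the main test, and the share was not counted for the settings that gave 1. The median of the 10 differences was -0.06, between -0.15 and 0.10 with 1 sample left out, 0.10 without mutant sample 1 and 0.02 with array weights. With 1 sample left out the difference lay between -0.15 and 0.13 for Notch1, -0.0681 and 0.0825 for Notch2, -0.40 and 0.0813 for Jag2, -0.22 and 0.11 for Dll1, -0.16 and 0.10 for Rbpj, -0.39 and 0.15 for Hes1, and -0.25 and 0.0233 for Hey1. With array weights the sign turned for Notch1 (-0.0783), Notch2 (0.0904), Dll1 (0.13) and Hes1 (0.0843). The weights were 0.257, 0.560 and 3.13 for mutant samples 1, 2 and 3. Weighted mutant means, and counts from that setting, thus rested mostly on mutant sample 3. Why the arrays differed in weight was not tested. Notch3, Jag1 and Heyl kept their sign in all 16 settings. Probe sets past an adjusted p of 0.05 numbered 1 with all samples, 1 to 39 with 1 left out (39 without mutant sample 1, 3 without control sample 2), 106 with array weights and 8 with the replicate block. The labels do not say that sample numbers pair mutant with control samples, so the numbers were not taken as pairs. Deviations of mutant and control samples with the same number had correlations of -0.05, -0.07 and 0.11. With 3 samples per group and mutant sample 1 apart from the rest, these values cannot decide whether samples were paired. With the block 0 Notch genes passed. The intervals of the brightest probe sets reach 0.85 below 0 (Hes1) and 0.70 above 0 (Jag1), while that of Notch2 runs from -0.30 to 0.30. Changes within a gene's own interval are not excluded here. The ends of the intervals do not mark the size of a change that would pass the adjusted test.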

Other observations

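Pathway genes under the filter on dim signal numbered 10, with mean signals of 11.8 to 120, and were not tested. Dll3, a Delta-like gene of somites, had 97.6, 122 and 97.7 in mutant samples 1, 2 and 3, against 62.8, 87.2 and 16.3 in control samples 1, 2 and 3. Hes3, a Hes repressor, had 35.2, 13.1 and 12.0 in mutant samples, against 84.1, 49.7 and 35.9 in control samples. The groups did not overlap for either gene. This also held for 8.33% of the brighter probe sets tested, and the share among dim probe sets was not counted. Both genes were picked from the dim genes with their values known.

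Of the marker lists, the hair placode list was the one whose summed signal did not overlap between groups. Single probe sets did not overlap for 8.33% of those tested, and no such share was counted for lists. The 4 genes Shh, Edar, Lhx2 and Sostdc1 summed to 2489 to 2810 in mutant samples, against 3712 to 3944 in control samples. Shh, the hedgehog ligand, had 647, 649 and 585 in mutant samples 1, 2 and 3, against 1219, 1237 and 1444 in control samples 1, 2 and 3. Its difference was -1.02 (unadjusted p = 5.46e-05, adjusted p = 0.205 in limma). Without mutant sample 1 it was -1.04 (adjusted p = 0.0268 in limma), where 0.173% of all probe sets passed. On a dimmer Shh probe set, under the filter, the groups overlapped. Lhx2, a factor of follicle progenitors, had 373, 386 and 366 in mutant samples 1, 2 and 3, against 551, 528 and 737 in control samples 1, 2 and 3. Its difference was -0.64 with all samples (unadjusted p = 0.00495, adjusted p = 0.9999 in limma) and without mutant sample 1 (adjusted p = 0.422 in limma). The groups overlapped for the other members, Edar and Sostdc1, which differed by -0.01 and -0.17. Rgs5, a pericyte marker and so of a cell type with Notch3 and Heyl, had 3105, 2533 and 2307 in mutant samples, against 1685, 2204 and 1835 in control samples, with a difference of 0.47 (unadjusted p = 0.0179, adjusted p = 0.9999 in limma) that was 0.35 without mutant sample 1. Rgs5 was picked with its values known, and the groups overlapped on its other tested probe sets. The pericyte markers Pdgfrb and Cspg4 differed by 0.04 and -0.0070, and the tested members of the pericyte and smooth muscle list had a median of 0.47 with all samples and of -0.14 without mutant sample 1. The suprabasal list summed to 155543 to 192509 in mutant and 146425 to 182141 in control samples, and the list of 2 measured Schwann cell genes to 2795 to 3285 in mutant and 2683 to 2881 in control samples.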
